A study of Xenopus laevis with 32 samples.

Results

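The mRNAs described here are the 100 genes, of 6497 in the deposited polysome share table, that were most polysomal in resting frog oocytes. Each gene was ranked by the lower of its 2 stage VI values, so that a gene had to be high in both to enter. The 12 leading genes were Xetrov90005767m.S, LOC101732809-like.S, LOC100493268.L, nanos1.L, Xelaev18044113m, dazap2.S, paf1.L, LOC100493268.S, Xetrov90018342m.L, ddx4.S, Xelaev18026010m and fkbp3.L. The ranking used measured values. The high stage VI shares are therefore how the genes were chosen, and any difference from stage VI is given as a description without a test. The 100th gene, senp1-like.S, had a lower share of 0.470, after Xelaev18042604m with 0.471 and znhit1.L with 0.470. Just outside, txnl4a.S, LOC734032-like.S and ppp1r3b.S each had 0.469. The edge of the set thus fell between genes that hardly differed.

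Frog (Xenopus laevis) oocytes were sampled over 5 stages of maturation, which progesterone, a steroid, sets off. They were stage VI, the full-grown oocyte without progesterone, PG90, which is 90 minutes into the treatment, MI and MII, the first and the second meiosis, and interkinesis, which lies between them. From every stage polyadenylated RNA was sequenced from the mRNP, monosome and polysome fractions of a sucrose gradient in 2 libraries per fraction, and 2 lanes of PAS-seq, which reads the 3' ends of polyadenylated RNA, came from stage VI. Groups differ by stage, by fraction and by whether progesterone had been given, and the labels name no genotype, no drug other than progesterone and no age, and do not say whether the 2 libraries of a group came from different frogs, so p-values measure the spread between these samples alone, which may be technical.

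A polysome is an mRNA carrying several ribosomes, and in a gradient it sediments below the single ribosome. A full-grown oocyte is transcriptionally quiet and lives on stored mRNA. Most of that store is masked, and progesterone brings some messages onto ribosomes, largely through cytoplasmic lengthening of their poly(A) tails, while others are released. The fraction is defined by how fast particles sediment. The share in the table is the authors' polysome fraction per gene, of a total that is not stated, in column set x and column set y for each stage. The x and y values are treated as 2 replicates.

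The labelled cell, the oocyte, was checked against marker lists. Of 16 oocyte marker symbols, 15 were in the RNA level table. Of the follicle cell list 1 of 13 symbols was there, cyp17a1, which frog oocytes express themselves. Of the connective tissue list there were 2 of 8, fn1.S and vim.L, and of the blood and liver lists 0 of 10 and 0 of 4. In stage order the summed level of fn1.S and vim.L was 61.2, 64.4, 94.8, 41.6 and 43.4 in x, and 26.1, 8.92, 9.83, 5.71 and 4.89 in y. Both sets were thus lower at MII than at stage VI, as were the members' median polysome shares, and the part of other cells in any result was not tested. The globin gene hbz.L, which is on none of these lists, was itself a member at rank 94, and the source of its RNA was not tested. Sequencing depth behind the shares and levels is unknown.

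Of the 100 members, 56 carried a gene symbol and 7 a symbol with the ending "-like". The other 37 had only a gene model ID or a LOC number, against 33.0% of the whole table, and no identity is given to them here. Genes of X. laevis often come as an L and an S copy from its 2 subgenomes. Among the 71 members with such an ending, 52 were L copies, which is 73.2% against 58.3% in the table. This difference was not tested.

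The members were compared with 13 gene lists. Of these lists, 7 held a member, and 16 of the 100 members were on a list. The share of all genes on any list was not computed, so nothing is read from this count. The secretory, egg coat, cytoskeleton, proteasome, ubiquitin and small GTPase lists held 0. The energy metabolism list held 4 of its 48 rows, the nuclear transport and RNA binding list 4 of 77, and cytosolic ribosomal proteins 3 of 45. Chaperones held 2 of 51, the chaperonin subunit gene cct2.S and the mitochondrial hspa9.L. The lists of translation factors and of cell cycle and chromatin genes held 1 each, eif3s4.S and mcm3.L, of 39 and 72 rows. For the whole table the corresponding share is 1.54% of rows.

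Another list was drawn up after the members' names had been seen, of mRNAs known to be held at the vegetal pole or in the germ plasm, the cytoplasm that marks the future germ cells. It had 8 rows in the share table, of which 5 were members, dazl.L, ddx25.L, nanos1.L, velo1.L and wnt11b.L. Of the other rows, otx1.L stood just outside at rank 174, whereas rbpms2.S was at rank 1174 and rbpms2.L at rank 5666. Since the list was made from these names, its count supports nothing about a high resting share. Both copies of ddx4, the frog vasa helicase of the germ line, were members too. The family of GW182 scaffold proteins, which carry out microRNA silencing, was likewise listed after the members' names had been seen. It had 5 rows and 3 members, tnrc6a-like.S, tnrc6b-like.S and tnrc6c-like.L, with the remaining copies at ranks 226 and 269. Its count therefore supports nothing about a high resting share either.

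In the order of the 5 stages, stage VI first and MII last, the median of the members' mean shares was 0.531, 0.474, 0.450, 0.430 and 0.341. Over all genes the medians were 0.328, 0.312, 0.290, 0.285 and 0.254. The members therefore stayed above the typical gene to the end, with 98, 96, 95 and 82 of 100 above the table's median over the 4 stages after stage VI, while the gap between the medians narrowed. At MII the members kept a median of 62.8% of their stage VI share, with a range from 31.9% to 154%, and all genes kept 76.4%. The stage VI columns chose the members, and how much of the difference this choice makes up was not tested.

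**Figure D1:**
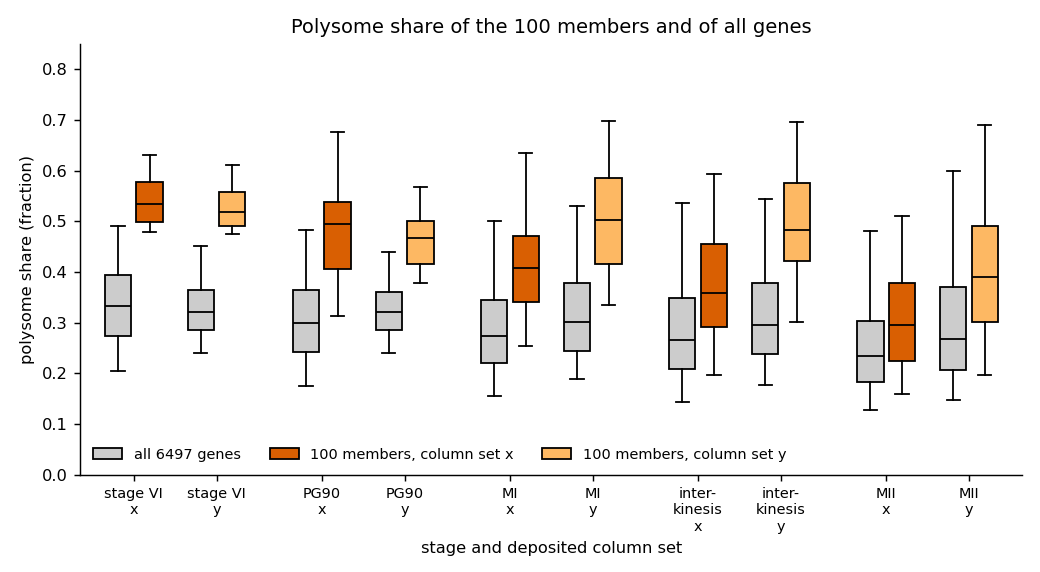
Polysome share in each of the 10 deposited columns for all 6497 genes (grey) and the 100 members (orange, dark for x and light for y). Boxes span the quartiles with the median as a line, and whiskers run from the 5th to the 95th percentile over genes. The members' medians lie above the grey ones in every column. From MI on the members' medians and the grey ones are both lower in x than in y.

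From MI on the column sets gave different pictures of the members' median share. In the same order the members' median in x was 0.535, 0.494, 0.407, 0.357 and 0.295, and in y it was 0.517, 0.466, 0.502, 0.484 and 0.390. Thus the median in x was lower at each stage than at the one before. In y it was lower at PG90 than at stage VI, higher again at MI, and lowest at MII. At MI 17 of 100 members had the higher value in x, against 34.5% of all genes. Gaps of more than 0.2 between x and y were found for 0, 7, 12, 26 and 18 members in stage order. Over all genes such gaps took up 1.60%, 2.23%, 4.71%, 7.93% and 10.9%. The absence at stage VI follows in part from a rule that asks for 2 high values.

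By the same rule applied at each stage, 42, 12, 6 and 3 of the 100 members were still among the 100 most polysomal genes over the 4 later stages. Among the highest 10% of genes there were 82, 55, 38 and 25 members. By this ranking most members were thus outside the 100 highest genes at each of the 4 later stages. Because the stage VI columns chose the members, how much of this loss the choice and the spread between columns make up was not tested. No turnover of the most polysomal set is therefore read from these counts. The 3 members left at MII were Xelaev18005411m, Xetrov90005767m.S and ccdc17.L, a coiled-coil gene.

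**Figure D2:**
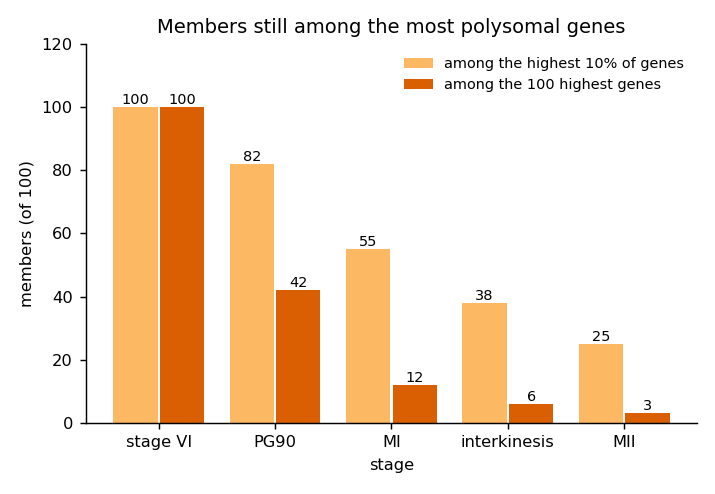
Number of the 100 members that were among the highest 10% (light bars) and the 100 highest genes (dark bars) at each stage, ranking genes by the lower of the stage's 2 columns. Both counts are 100 at stage VI by construction and reach 25 and 3 at MII.

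Both columns lay below both stage VI columns in 57 members at PG90 against 21.1% of the table, 52 at MI against 38.8%, 52 at interkinesis against 41% and 77 at MII against 53.5%. They lay above in 2 members against 7.71%, 8 against 12.3%, 6 against 12.4% and 2 against 9.37%. Since the rule used stage VI, nothing is read from these counts.

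Comparisons among the later stages leave out the columns that chose the members, and only these were tested. On the log2 odds scale, log2(share / (1 - share)), limma called 0 of 6497 genes at an adjusted p under 0.05, which is 0% of the table, for MI, interkinesis and MII against PG90 and for MII against MI, and so 0 members in each. At an unadjusted p under 0.05 there were 234, 478, 1352 and 516 genes in these comparisons. This fit does not pair the columns by suffix. With column set as a further term the numbers were 553, 993, 2178 and 991, and 0 genes were called. No member can therefore be said to differ between later stages, and the following directions are descriptions.

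Against PG90, the median member differed by -0.76 log2 odds at MII, -1.04 in x and -0.49 in y, and the median of all genes by -0.42. In 86 of 100 members the mean was lower at MII, against 73.9% of all genes. With each column centred on its median, 76 members were lower, against 49.8% of all genes, and the median was -0.33. Without the MII column x the median was -0.59, and without the MII column y it was -1.08. At an unadjusted p under 0.05, 27 members were lower, against 17.5% of the table, and 1 was higher, against 3.31%. Both MII values lay below both PG90 values in 60 members, against 44.4% of the table, and above them in 2, against 9.56%.

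MII against MI gave a median of -0.58 for the members and -0.24 for all genes, and 93 members were lower, against 69.7% of all genes. After median-centring 69 were lower, against 46.7%. The size rested on single columns and on the scaling. Without the MII column x the median was -0.30 and without the MI column y it was -0.34. Without the MI column x it was -0.86 and without the MII column y it was -0.85. After median-centring it was -0.31. At an unadjusted p under 0.05, 15 members were lower, against 6.53% of the table, and 0 were higher, against 1.42%. MI against PG90 gave -0.15 for the members and -0.15 for all genes, with 63 members lower against 63.4% of all genes. Interkinesis against PG90 gave -0.26 and -0.19, with 71 lower against 65.2%. The scaling decided these earlier values. With each column centred on its median they were 0.0046 at MI and -0.052 at interkinesis. There 50 and 56 members were lower, against 49.4% and 48.9% of all genes. After quantile normalization the 2 medians were -0.47 and -0.71. At an unadjusted p under 0.05 there were then 14 and 25 members, against 458 and 584 of all 6497 genes. MII against PG90 and against MI gave -1.002 and -0.50 with this normalization. The medians of MI and of interkinesis against PG90 also changed sign, to 0.18 without the MI column x and to 0.0877 without the interkinesis column x. Without the y column of the later stage they were -0.42 at MI and -0.62 at interkinesis. At an unadjusted p under 0.05, 1 member was lower and 1 higher at MI, against 2.79% and 0.816% of the table. At interkinesis 6 were lower and 1 higher, against 5.31% and 2.05%. Both MI values lay below both PG90 values in 22 members and above them in 10, against 26.1% and 12.2% of the table. For interkinesis these counts were 19 and 7, against 29.5% and 13.2%.

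The germ line and vegetal mRNAs, with 7 members, were the largest of the 10 groups by function drawn up here. These groups were chosen after the values had been seen and held only 38 of the members. Nothing is therefore read from their sizes. The product of nanos1 is an RNA-binding repressor that protects germ cells. For nanos1.L, rank 4, the shares over the 5 stages in order were 0.617, 0.676, 0.382, 0.320 and 0.395 in x, and 0.604, 0.536, 0.649, 0.680 and 0.492 in y. Its 2 columns parted at MI, where y was above its resting value and x below. The same split ran through dazl.L, which encodes a germ line RNA-binding protein that promotes translation. Its shares were 0.604, 0.400, 0.243, 0.191 and 0.237 in x, and 0.493, 0.485, 0.537, 0.554 and 0.511 in y. At MI and interkinesis its x values were under the table's medians in x of 0.274 and 0.266, at MII the x value was next to the median of 0.233, and the y values were above the medians in y throughout.

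For ddx25.L, the DEAD-box helicase of the germ plasm, shares in stage order were 0.507, 0.521, 0.448, 0.322 and 0.343 in x, and 0.578, 0.496, 0.549, 0.598 and 0.570 in y. In wnt11b.L, the maternal Wnt ligand that takes part in setting up the body axis, they were 0.535, 0.433, 0.343, 0.328 and 0.221 in x, and 0.549, 0.515, 0.522, 0.548 and 0.465 in y. For velo1.L, a vegetally localized mRNA related to zebrafish Bucky ball, they were 0.473, 0.480, 0.388, 0.258 and 0.210 in x, and 0.545, 0.469, 0.503, 0.461 and 0.366 in y. In these 3 genes the MII values of x and y stood apart, with x lower. Of the 5 members on the list, nanos1.L, velo1.L and wnt11b.L had both MII values below both stage VI values, and dazl.L and ddx25.L did not.

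The vasa copies differed from each other. For ddx4.L the shares were 0.572, 0.383, 0.206, 0.197 and 0.220 in x, and 0.510, 0.337, 0.297, 0.249 and 0.198 in y. It kept 38.6% of its stage VI share, and its values were under the stage VI range from PG90 on. Between PG90 and MII it differed by -1.09 log2 odds (SE 0.36, limma adjusted p 0.167). For ddx4.S they were 0.631, 0.547, 0.464, 0.245 and 0.279 in x, and 0.557, 0.488, 0.554, 0.464 and 0.405 in y, and it kept 57.5%. Over the 7 germ line and vegetal members the MII mean share ran from 0.209 in ddx4.L to 0.456 in ddx25.L. All 7 had a negative difference between PG90 and MII, with a median of -0.96. Of all genes 73.9% were lower in this comparison, with a median of -0.42. Both MII values lay below both PG90 values in 4 of the 7, against 44.4% of the table. In y, dazl.L went from 0.485 to 0.511 and ddx25.L from 0.496 to 0.570.

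**Figure D3:**
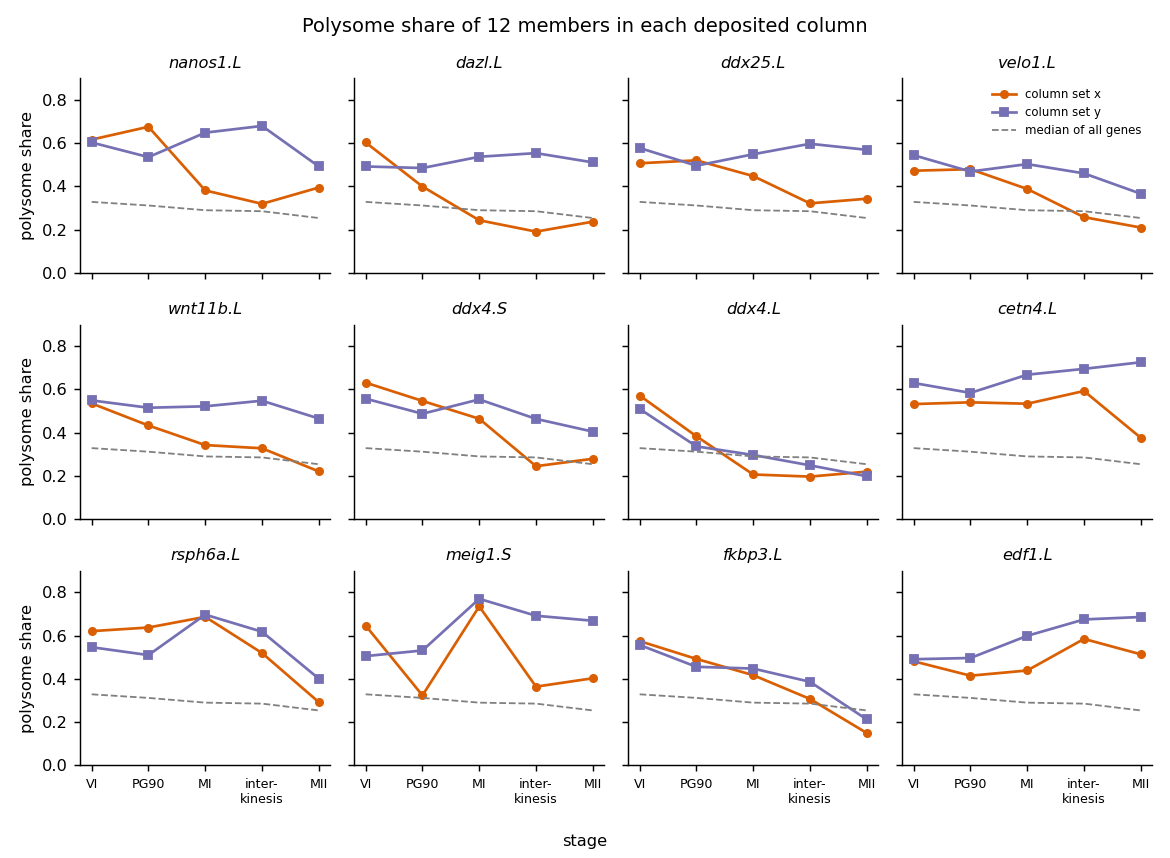
Polysome share of 12 members at the 5 stages, with column set x as circles, column set y as squares and the median of all genes as a dashed line. In nanos1.L, dazl.L, ddx25.L and wnt11b.L the y values stay between 0.465 and 0.680 while x ends between 0.221 and 0.395, whereas both columns end low in ddx4.L and fkbp3.L and above 0.5 in edf1.L.

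A small group of genes belongs to centrioles and motile cilia, and 2 of the 3 had their highest mean share at MI. They were cetn4.L, a centrin, rsph6a.L, a radial spoke head protein of cilia and flagella, and meig1.S, named for its expression in meiosis and needed for the sperm tail in mice. For rsph6a.L the shares were 0.621, 0.638, 0.687, 0.520 and 0.292 in x, and 0.547, 0.510, 0.697, 0.618 and 0.401 in y. Both MI values were above all others, and both MII values below all others. Its difference between MI and MII was -2.10 log2 odds (SE 0.57, limma adjusted p 0.511).

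For meig1.S the values were 0.647, 0.324, 0.736, 0.364 and 0.403 in x, and 0.505, 0.531, 0.771, 0.692 and 0.669 in y. It ranked 2nd of all genes at MI, although its x and y values at the stages on either side were far apart. For cetn4.L they were 0.532, 0.540, 0.534, 0.593 and 0.376 in x, and 0.630, 0.584, 0.668, 0.695 and 0.726 in y, so that the MII values lay on either side of the earlier ones.

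Genes for transcription and chromatin differed in what they kept. For hdac1.L, a histone deacetylase, the shares at stage VI were 0.512 and 0.577 and at MII 0.462 and 0.657. For paf1.L, a subunit of the PAF complex that travels with RNA polymerase II, they were 0.602 and 0.576 at stage VI and 0.494 and 0.585 at MII. Both ended near their resting mean, from 0.544 to 0.559 in hdac1.L and from 0.589 to 0.540 in paf1.L. In polr1a.L, the largest subunit of RNA polymerase I, the shares went from 0.530 and 0.527 to 0.224 and 0.348, and the cell cycle factor e2f1.L went from 0.580 and 0.552 to 0.296 and 0.461. Both MII values were below both stage VI values in these 2 genes.

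DNA replication was represented by mcm3.L of the replicative helicase, orc2.S of the origin recognition complex, the flap endonuclease gene fen1.S and pole3.L, an accessory subunit of DNA polymerase epsilon. Their stage VI means lay between 0.507 and 0.541 and their MII means between 0.311 and 0.446. For mcm3.L the columns read 0.532, 0.508, 0.417, 0.297 and 0.229 in x, and 0.550, 0.495, 0.508, 0.485 and 0.395 in y. In y the lowest value came at MII, and in x each stage was below the one before. Its difference between PG90 and MII was -1.19 (SE 0.57, limma adjusted p 0.260).

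The few members from the ribosome and the respiratory chain kept less at MII than the median member, with group medians of 50.5% and 49.2%. They were not alone, as the 3 protein folding members had a median of 44.0%. All 45 rows of the ribosomal protein list had a median of 0.402 at stage VI and 0.213 at MII. For the 48 rows of the energy metabolism list these were 0.377 and 0.263. The 3 ribosomal protein members were rpl36.L, rps10.L and rps25.S, with stage VI means between 0.488 and 0.499 and MII means between 0.216 and 0.267. In rpl36.L the shares were 0.491, 0.302, 0.376, 0.314 and 0.268 in x, and 0.497, 0.418, 0.371, 0.307 and 0.232 in y. The 4 members of the respiratory chain and ATP synthase were atp5j.S, cox6b1.L, ndufa5.L and ndufb9.L, and they kept between 38.2% and 59.6%. In ndufa5.L, a subunit of complex I, the shares were 0.485 and 0.476 at stage VI and 0.234 and 0.132 at MII. The complex I gene ndufb9.L was listed at 0.0464 in x and 0.460 in y at interkinesis, among the widest gaps of any member.

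The lowest mean MII share of a member belonged to fkbp3.L, which encodes a nuclear prolyl isomerase. Its shares were 0.575, 0.492, 0.417, 0.307 and 0.149 in x, and 0.557, 0.456, 0.448, 0.386 and 0.212 in y. The 2 columns moved together and did not overlap between stage VI and any later stage. Between PG90 and MII the difference was -2.05 log2 odds (SE 0.43, limma adjusted p 0.132), the smallest adjusted p among the members and shared with eif3s4.S. For eif3s4.S, an initiation factor 3 subunit by its name, the shares were 0.490 and 0.396 at PG90 and 0.176 and 0.234 at MII, a difference of -1.63 (SE 0.41, limma adjusted p 0.132). For pa2g4.L, a growth-regulating RNA-binding protein, they were 0.508 and 0.343 at PG90 and 0.152 and 0.229 at MII, a difference of -1.67 (SE 0.52, limma adjusted p 0.167). The other low end points, ndufa5.L, Xetrov90018342m.L and ddx4.L, had MII means of 0.183, 0.207 and 0.209.

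At the other end were 6 members with MII means of 0.600 to 0.833. The highest, Xelaev18005411m, had 0.597, 0.727, 0.821, 0.867 and 0.812 in x, and 0.488, 0.567, 0.754, 0.791 and 0.854 in y. It led the whole table from MI on. In edf1.L, a ribosome-associated factor known from human cells for its part in sensing ribosome collisions, they were 0.481, 0.415, 0.439, 0.585 and 0.514 in x, and 0.491, 0.497, 0.599, 0.675 and 0.686 in y. These 2 were the only members with both MII values above both stage VI values. Their gain over stage VI is described and was not tested.

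The rest of the high group was dbnl.L, an actin-binding adaptor, with 0.494 and 0.809 at MII, ccdc17.L with 0.556 and 0.717, Xetrov90005767m.S with 0.598 and 0.666, and Xelaev18023070m with 0.510 and 0.744. In each the y value was above x. For Xetrov90005767m.S, the top gene at stage VI with 0.629 and 0.631, the MII values lay around the stage VI ones. Another 2 symbols held their mean share, oaz1.L, the antizyme that curbs polyamine synthesis and is made by a ribosomal frameshift, with 99.0% kept, and smn2.L of the SMN complex, with 104%. In both the x value at MII was under and the y value over those of stage VI.

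In 14 members the MII share was lower than at stage VI in x and higher in y, and in 0 members the reverse held. Over all genes these directions took up 18.4% and 5.71%. The widest disagreement was in ppp1r2.L, the protein phosphatase inhibitor, with 0.140 in x and 0.591 in y at MII, and the next widest at that stage was znhit1.L with 0.132 and 0.531. Their mean at MII describes neither column.

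The sister copies of the members are genes that the rule did not choose directly. Of the 71 members with an L or S ending, 30 had the other copy in the table, and in 4 of these, the copies of ddx4 and of LOC100493268, both were members. The other 26 sister copies had a median rank of 331 of 6497, with the best at 119 and the lowest, cacybp.S, at 3046. All 26 were in the upper part of the table, split at its median, and 17 were among the highest 10%. Counted with the pairs of members, 21 of the 30 had their sister copy among the highest 10%. For the members without a sister copy in the table nothing is known. For hdac1.S, the sister of hdac1.L, the shares were 0.412 and 0.507 at stage VI and 0.379 and 0.602 at MII. How reads of near-identical copies were divided is not stated, so that sister values may not be independent. The profiles of LOC100493268.S and tnrc6a-like.S differed by at most 0.0222 in any of the 10 columns, and whether they count the same reads was not tested.

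RNA levels were listed for 53 of the 100 members, and for 52 under a name listed a single time. Their unit is not stated and whether they are scaled to gene length is unknown, so levels are compared only within a gene. In the authors' deposited table the members' median ratio to stage VI, in the order of the 4 later stages, was 1.05, 1.20, 1.14 and 1.12 in x and 0.939, 1.03, 1.17 and 0.975 in y. The corresponding medians of all 11765 genes in the authors' deposited table were 0.998, 1.03, 1.02 and 1.05 in x and 1.05, 1.02, 1.02 and 1.04 in y. As medians, the deposited levels of these 52 members thus stayed between 0.939 and 1.20 times stage VI. The median polysome share of all 100 members was lower at each later stage. The libraries were of polyadenylated RNA and the unit is not stated, so the ratios do not give the amount of RNA per oocyte.

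By the ratios in the authors' deposited table, 2 of 52 members were at least 2-fold lower in x and in y at MII, against 3.37% of all genes, and 0 were at least 2-fold higher, against 0.977%. The 2 were cox6b1.L, a cytochrome oxidase subunit, and prdx2.L, a peroxiredoxin. The deposited levels of cox6b1.L in stage order were 709, 453, 468, 346 and 302 in x, and 42.04, 21.7, 36.6, 22.5 and 9.88 in y. For prdx2.L they were 691 and 85.4 at stage VI and 317 and 27.8 at MII. With atp5j.S, at ratios of 0.585 and 0.219 in the authors' deposited table, and ndufb9.L, at 0.605 and 0.455, 3 of the 4 lowest members belong to the respiratory chain and ATP synthase. The fourth gene of that group, ndufa5.L, had ratios of 0.902 and 1.67 in the authors' deposited table and so was not low in y.

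The highest MII ratios in the authors' deposited table were those of orc2.S, with 1.97 in x and 3.14 in y, velo1.L with 2.56 and 1.93, sf3b2.L, a splicing factor, with 2.58 and 1.74, and ddx4.L with 1.53 and 2.53. At interkinesis sf3b2.L, with 3.96 and 3.97, was the only member at least 2-fold higher in x and in y by the authors' deposited table, against 0.629% of all genes. At the same stage 0 members were at least 2-fold lower, against 1.43%. At PG90 0 members were at least 2-fold higher or lower, against 0.306% and 0.263%, and at MI 0 in either direction, against 0.45% each. In orc2.S, velo1.L and ddx4.L the level was thus higher at MII than at stage VI where the polysome share was lower. Since the level table and the share table may come from the same libraries, these are not independent measurements.

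Smaller ratios went both ways. By the authors' deposited table, 17 of the 52 members were above stage VI in x and in y at PG90, against 31.7% of all genes. Below it in both were 12 of 52, against 24.4%. At MI these counts were 22 and 10 of 52, against 34.9% and 29.4%. For interkinesis they were 23 and 15 of 52, against 37.7% and 33.6%. For MII they were 19 and 14 of 52, against 38.4% and 29.7%, by the authors' deposited table.

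For other localized mRNAs the column sets went opposite ways in level. In the authors' deposited table nanos1.L had MII ratios of 1.99 in x and 0.487 in y, wnt11b.L 1.84 and 0.533, ddx25.L 2.08 and 0.842, and dazl.L 1.64 and 0.943. The levels of nanos1.L were 26.5, 51.6, 46.7, 44.7 and 52.8 from stage VI to MII in x, and 50.2, 61.5, 43.6, 28.7 and 24.5 in y. Their level therefore ended higher in the column set where their polysome share ended lower. Whether this comes from the samples or from how the sets were processed was not tested.

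**Figure D4:**
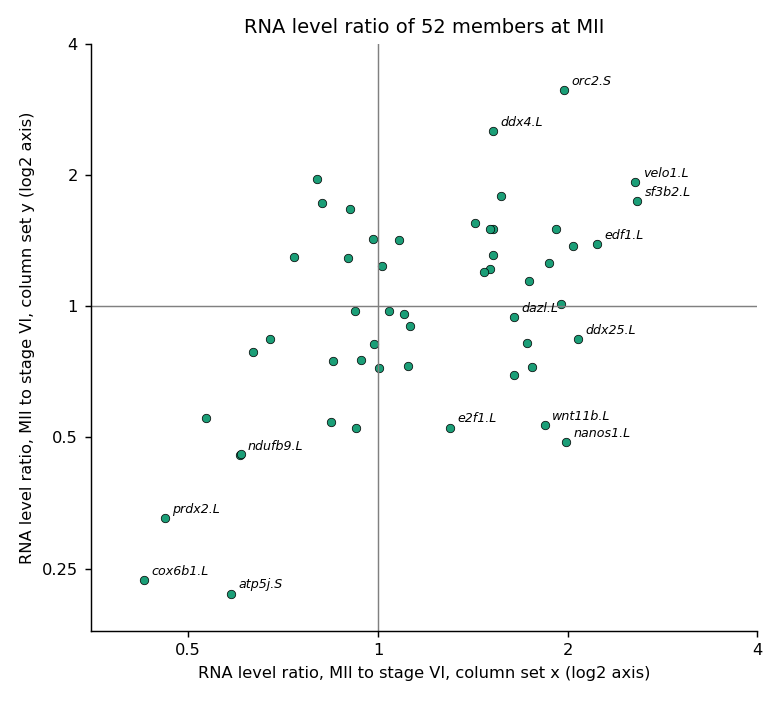
RNA level at MII divided by stage VI in the authors' deposited table for the 52 members listed once, column set x against column set y, both on log2 axes with lines at a ratio of 1. cox6b1.L, atp5j.S, ndufb9.L and prdx2.L lie low in both sets, orc2.S, velo1.L, sf3b2.L and ddx4.L high in both, and nanos1.L and wnt11b.L high in x and low in y.

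MII against PG90 was tested for level as well, with column set as a term. Here limma called 2 of 11765 genes, or 0.017%, and 0 of the 52 members at an adjusted p under 0.05. At an unadjusted p under 0.05 there were 11 of the 52 members, against 23% of all genes. Of the 11, 9 were higher and 2 lower. The directions over all genes were not counted here, so nothing is read from this split. The smallest adjusted p of a member was that of edf1.L, whose log2 level differed by 0.97 (SE 0.20, limma adjusted p 0.119). For fen1.S the difference was 0.80 (SE 0.17, limma adjusted p 0.121) and for prdx2.L it was -1.04 (SE 0.24, limma adjusted p 0.126).

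PAS-seq placed the 3' ends of 51 members in stage VI oocytes, with 3585 reads in all. The median member had 50 reads at 3 sites, and the median over the 3173 share table genes with a PAS entry was 46 reads at 4 sites. More than 1 site was listed for 42 of the 51, or 82.4% (Wilson 95% interval 69.7% to 90.4%), against 85.5%. The most used site held a median of 58.7% of a member's reads, against 54.5%. In read number and in site use the most polysomal mRNAs thus stood near the other genes. The intervals cover counting error only. The lowest count listed for a site of a member was 4 reads, so sites with fewer reads may be missing.

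Among the localized mRNAs the patterns of 3' ends differed widely. For nanos1.L all 19 listed reads lay at 1 site, at base 4860210 of chromosome 7L. In ddx25.L 112 reads were spread over 11 sites, and the most used, at base 67485847 of chromosome 7L, held 16.1% (Wilson 95% interval 10.4% to 24.0%). The 206 reads of velo1.L lay at 9 sites over 4880 bases. Its 2 most used sites, at bases 60332877 and 60336629 of chromosome 6L, held 67 and 55 reads. In wnt11b.L 26 of 80 reads were at base 21226161 of chromosome 8L and 21 at a site 5751 bases away. For ddx4.L 112 of 178 reads, or 62.9% (Wilson 95% interval 55.6% to 69.7%), were at base 195241012 of chromosome 1L. The genome build of these positions is not given in the sources used here, and whether the sites lie in an exon, an intron or a UTR was not analysed here.

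The members with most PAS reads were edf1.L with 242, oaz1.L with 234, stmn1.L with 223, hdac1.L with 210 and velo1.L. In edf1.L 69.8% of reads were at base 1987598 of chromosome 8L, and in oaz1.L 79.1% at base 99814334 of chromosome 1L. Use was shared more evenly in the other genes. In stmn1.L, which encodes the microtubule regulator stathmin, 115 reads were at base 59901070 of chromosome 2L and 102 at a site 1374 bases away. In hdac1.L 91 reads were at base 84175524 of chromosome 2L and 78 at a site 3369 bases away. Genes with 1 strong end and genes with a pair of similar ends were thus both found among the most read members.

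**Figure D5:**
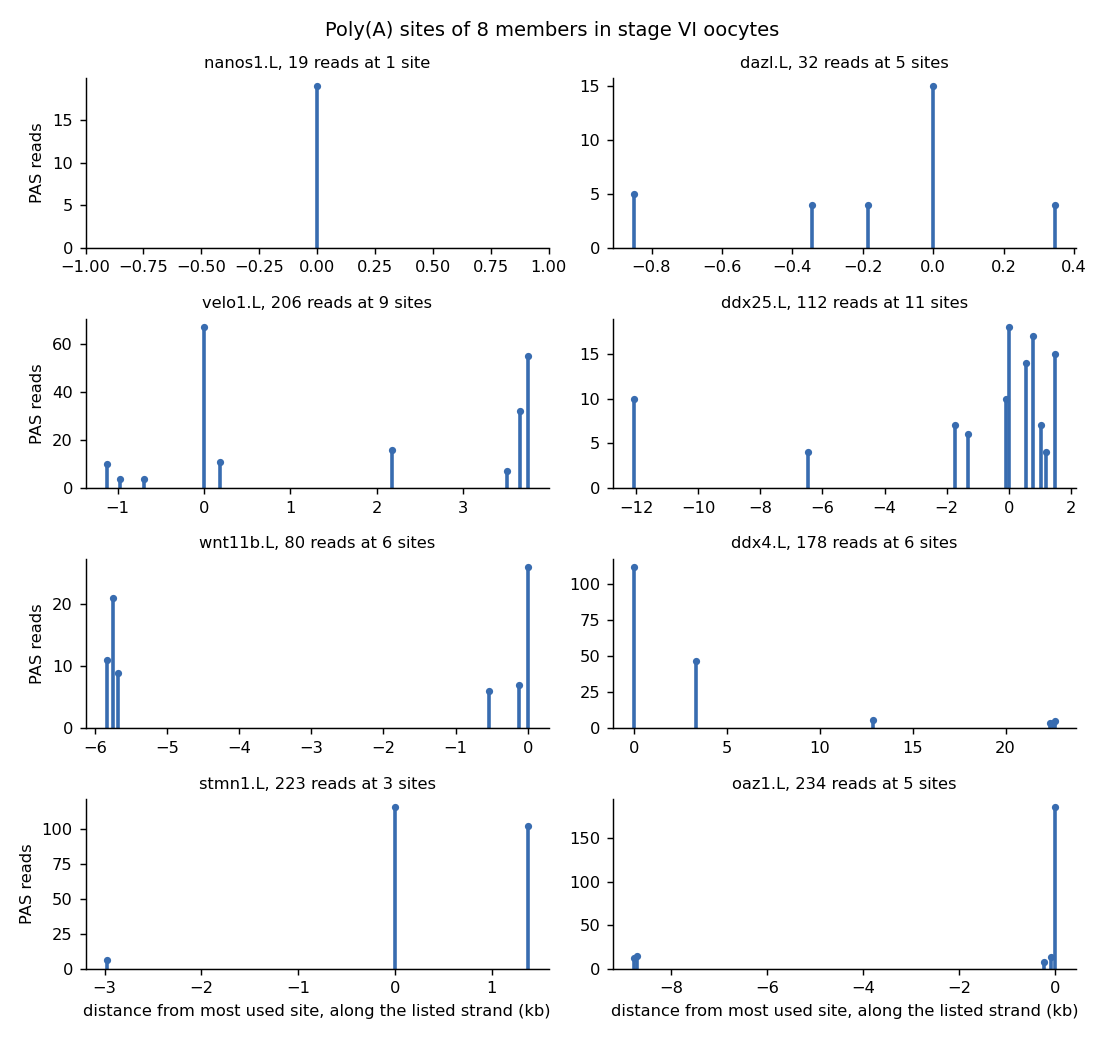
PAS-seq reads per poly(A) site (vertical axis) against the distance of the site from the gene's most used one in kilobases, along the listed strand, for 8 members in stage VI oocytes. nanos1.L has 1 site, ddx25.L has 11 with no leading one, and oaz1.L has 185 of its 234 reads at 1 site.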

How the data were processed

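Polyadenylated RNA from 3 gradient fractions at 5 stages (30 libraries in 15 groups of 2) and 2 PAS-seq lanes is represented by 3 deposited tables. Bowtie, TopHat2, Cufflinks and Bowtie2 are named, without roles, per the submitters' processing notes, and the genome build and filters are not given in the sources used here. Polysome shares were deposited as a fraction for each gene, with 2 columns per stage, x and y. The second holds the authors' RNA levels, taken here as a score since the deposited values, all above 1, have no stated unit, beside the authors' ratio to stage VI for the 4 later stages. The third holds, per the file headers, a read count per poly(A) site with both lanes in 1 column. All value columns were mapped to a stage. The suffixes match no replicate number.

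Log2 odds of the share were fitted for all 6497 genes in the 8 later columns with limma 3.58.1 in R 4.3.3 (lmFit and eBayes with trend), with stage as the only term and Benjamini-Hochberg adjustment within a contrast (threshold 0.05, residual degrees of freedom 4, prior 7.01). Log2 level was fitted likewise for the 11765 names listed once, with column set as a further term because x and y differ in scale and the authors' ratios stay within a set. Deviations of x from the stage mean correlated across genes between stages, from 0.173 to 0.451, so the suffix may pair columns. The main share fit does not use this pairing, and a share fit with column set as a term is among the alternatives. The share fit was tested on simulated data, where it called most of the larger changes put in and hardly any of the smallest. Named were the members with extreme stage VI rank, MII share, level ratio or PAS reads, those on the lists, and those with both copies in the set. Because 0 members passed, those with the smallest p, and the role groups, the vegetal and GW182 lists and single genes with wide x and y gaps were chosen after their values were seen. Members and lists were all chosen with earlier results of these data known. Protein, promoter and other sequence features were planned and not analysed here. The result of 1 gene list is not reported here. Alternatives were other columns, scalings, transformations and blocks, each column left out, other ranks and thresholds, and other site filters.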

Additional observations from a re-analysis of the deposited data

How the results depend on the processing

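No paired analysis was possible because the column names, which end in x or y, cannot be matched to libraries and hold no replicate number. The suffix served as the block in its place. Members at an unadjusted p under 0.05 then moved from 2 to 4 for MI against PG90 and from 7 to 12 for interkinesis. They moved from 28 to 39 for MII against PG90 and from 15 to 23 for MII against MI. In the same order, all genes moved from 234 to 553, 478 to 993, 1352 to 2178 and 516 to 991, of 6497 tested. With this column-set block, as under each of the other share alternatives and each column left out, 0 members were called in the 4 share comparisons. The smallest adjusted p of a member for MII against PG90 ranged from 0.0549 with the block to 0.395 without the PG90 column y. For RNA level 0 members were called under any alternative, and without the column-set term 34 genes had an unadjusted p under 0.05, since the scale difference between x and y then enters the residuals. The depth of shares and levels is unknown.

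Median shares of the members moved by more than the spread between columns at PG90, to 0.497 for the 50 highest genes and 0.454 for the 200 highest. Members still among the highest at PG90 were 20 in x alone. At MI they were 6 in x alone. At interkinesis they were 12 when ranked by the mean of the stage VI columns, 24 of the 200 highest, and 13 in y alone. At MII they were 8 by the mean, 0 of the 50 highest, 1 in x alone and 5 in y alone. With a 1.5-fold threshold for RNA level, 1 member was lower at PG90 and 5 were higher at MI. At interkinesis 6 were higher and 2 lower, and at MII 8 were higher and 6 lower. The share of all genes at this threshold was not computed, so nothing is read from these counts. A minimum of 10 reads per site left 44 members with a site, 24 of them with more than 1, or 54.5% against 58.3% of share table genes. Except where a threshold itself was lowered, the cause was not tested. For the other alternatives these values stayed within their spread or within 1.5 times the count. Counts for the 50 and the 200 highest were compared as a share of those genes, such as 86 of the 200 highest at PG90 against 42 of 100.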
